A study of Mus musculus with 8 samples.

Results

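Elf5, Elf3, Ehf, Gata3, Foxa1, Esr1, Pgr, Prlr, Cited1 and Stat5a are regulators of the mammary luminal lineage, the epithelial cells that line the ducts and make milk. They were taken by gene symbol from the count table, and all 10 were found among its 31894 genes. The tumor cells came from a line of organoids that goes back to mammary tumors of PyMT mice, in which the polyoma middle T oncogene drives tumor growth. They carried a fusion of E-cadherin with the cyan fluorescent protein mCFP. Tumor pieces were passaged through the mouse brain before the organoids were derived. Cells of the organoids were then injected intracranially to give breast cancer brain metastases (BCBM) in FVB mice, which the labels call wild type. The labels give no age for these mice, and the paper gives a range of ages at injection for all its mice. From each of 4 mice, numbered 57, 58, 67 and 70, cells with high (E-cadHI) and low (E-cadLO) E-cadherin-mCFP were sorted by FACS and sequenced as 1 bulk mRNA library each, 4 libraries per group. All 8 libraries therefore share the oncogene, the reporter and the organoid line, and neither group is a normal mammary control. The E-cadHI libraries of mice 57, 58, 67 and 70 held 14922074, 13006189, 13437544 and 11876177 counts, and the E-cadLO libraries 11325146, 9102781, 14313787 and 15769200.

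The luminal compartment holds cells that sense hormones and cells that make milk. Estrogen and progesterone act through the nuclear receptors Esr1 and Pgr in the hormone-sensing cells, where Foxa1 opens chromatin for Esr1 and Cited1 is a coactivator of Esr1. Prolactin binds Prlr, which signals through the kinase Jak2 to Stat5a, and Stat5a and the Ets factor Elf5 drive the milk protein genes of the alveolar cells, while Gata3 is needed across the luminal lineage and Elf3 and Ehf are epithelial Ets factors.

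Of the 10 genes, 9 had enough counts to be tested and Pgr did not. In the within-mouse comparison Elf5, Ehf, Gata3, Prlr and Stat5a were lower in E-cadLO than in E-cadHI cells in 4 of 4 mice, 5 of the 9 tested genes, where 14.2% of the 13598 genes tested behaved so. Elf3 and Cited1 were higher in E-cadLO cells in 4 of 4 mice, 2 of the 9, against 16.8% of all genes tested. Esr1 and Foxa1 differed in direction between mice. None of the 9 passed an adjusted p of 0.05 in edgeR's quasi-likelihood test, in which 0% of all genes tested were called in either direction. At an unadjusted p under 0.05, 4 of the 9 (Elf5, Gata3, Prlr and Stat5a) were lower and 0 higher, beside 790 genes (5.81%) lower and 1109 (8.16%) higher among all genes tested. The same 4 genes were called lower by DESeq2 with the mouse as a replicate block, which called 1.63% of all genes lower and 7.57% higher. DESeq2 without the block called 0 of the 9, beside 0.426% of all genes lower and 2.22% higher.

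**Figure D1:**
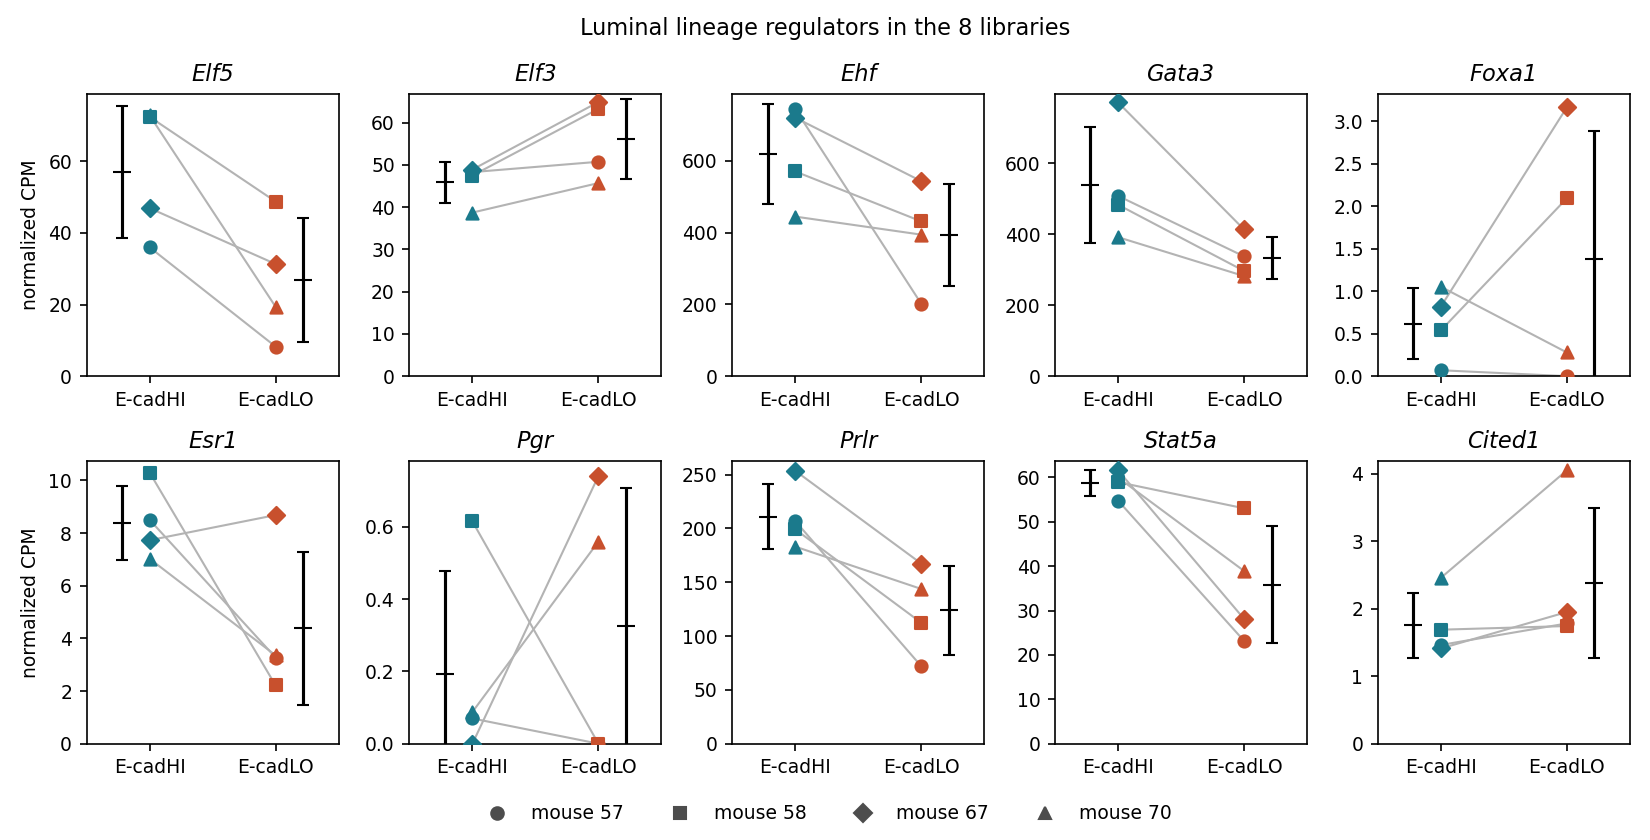
Normalized CPM (counts scaled to library size, y axes) of the 10 luminal regulators in the 4 E-cadHI and 4 E-cadLO libraries. Each point is 1 library, grey lines join the libraries of a mouse, and the bar is the mean with the standard deviation, cut at 0. Prlr and Stat5a are the genes whose groups do not overlap.

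Short sequences known to be bound by STAT, Ets, GATA and forkhead factors and by nuclear receptors were looked for in the promoters of the regulators. Letter matches were searched on both strands of the 250 bases before each start site in RefSeq's promoter table (GRCm38.p6), which held 9 of the 10 genes with 16 starts. Stretches from Prlr and Gata3 are shown, since these were among the more abundant of the regulators that were lower in E-cadLO cells. The stretch of Prlr lies at chr15:10223771-10223830 on the plus strand, before the second of 3 annotated starts. Which start the cells use was not measured. The capitals mark TTCNNNGAA, the palindrome that STAT dimers bind. The stretch of Gata3 lies at chr2:9878771-9878830 on the minus strand, and its capitals mark TTCCGG, the reverse complement of the Ets core CCGGAA. Both starts lie within the annotated bounds of their genes and not at the outermost 5′ end.
Prlr: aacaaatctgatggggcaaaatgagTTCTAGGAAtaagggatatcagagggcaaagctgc
Gata3: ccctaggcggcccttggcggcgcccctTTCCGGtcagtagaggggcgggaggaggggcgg
The STAT letters were found in 7.02% of the 32851 promoter windows of all genes and the Ets letters in 12.03%. These matches describe sequence and say nothing of binding in these cells. Of the regulators, Esr1 and Prlr held the STAT letters, Gata3 the Ets letters and Foxa1 and Prlr the letters TGTTTAC of forkhead factors, which 3.17% of all windows hold. The GATA letters AGATAA, in 9.99% of all windows, were in none of the 16. The nuclear receptor letters AGGTCA (14.0% of all windows) were found in Cited1 and Stat5a, and TGTTCT (16.1%) in Prlr.

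Ranked by level per length (CPM per kilobase of exon, mean over 8 libraries), Gata3 (109.6) and Ehf (90.9) were the most abundant of the regulators, above 96.6% and 95.6% of the genes tested. Their ranges overlapped, with Gata3 the higher in 6 of 8 libraries. Elf3 (23.0) and Prlr (10.9) followed, and the range of each lay below that of the gene before it. Elf5 (7.14) overlapped with Prlr, and Stat5a (6.63) could not be separated from Elf5, which was the higher in 4 of 8 libraries. Cited1 (1.18) lay below Stat5a in all 8 libraries, then came Esr1 (0.467), Foxa1 (0.301) and Pgr (0.0303), which were above 8.97%, 4.96% and 0.00736% of the genes tested. The range of Esr1 lay below that of Cited1, but Foxa1 overlapped with Esr1, which was the higher in 6 of 8 libraries, and Pgr with Foxa1, which was the higher in 7. Cited1, Esr1, Foxa1 and Pgr, the 4 genes described above as acting in hormone-sensing cells, were therefore the lowest of the 10 in this order. Prlr, also a hormone receptor, lay higher.

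Prlr, the prolactin receptor (chr15:10177238-10349180, plus strand, GRCm38), was at 207, 199, 254 and 183 normalized CPM (counts scaled to library size after TMM) in the E-cadHI libraries of mice 57, 58, 67 and 70, and at 72.0, 112, 167 and 144 in the E-cadLO libraries. The highest E-cadLO value lay below the lowest E-cadHI value. The log2 fold change was −0.77 (standard error 0.25, 95% interval −1.33 to −0.20, adjusted p = 0.298, edgeR). Within mice the log2 ratio was −1.52, −0.82, −0.60 and −0.35, a mean of −0.82 ± 0.50 (SD, n = 4), with p = 0.13 in the exact two-sided sign-flip test, the smallest that 4 pairs allow.

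Stat5a, the transcription factor that carries the prolactin signal (chr11:100859351-100885169, plus strand), was at 54.8, 58.9, 61.6 and 59.97 normalized CPM in E-cadHI cells and at 23.2, 53.0, 28.1 and 38.9 in E-cadLO cells. The 4 E-cadHI libraries were close together and all above the 4 E-cadLO libraries, so Prlr and Stat5a, 2 of the 9 tested, did not overlap between the groups, where 4.2% of all genes tested lay lower and 3.9% higher in this way. The log2 fold change was −0.72 (standard error 0.25, 95% interval −1.28 to −0.16, adjusted p = 0.302). Mouse 58 showed little of this difference, with a log2 ratio of −0.15 beside −1.22, −1.12 and −0.62 in mice 57, 67 and 70. Stat5a overlaps Stat3 on the opposite strand. Whether reads were counted by strand is not given in the sources used here, and Stat3 was at 445 and 363 normalized CPM in E-cadHI and E-cadLO cells, so some reads of Stat5a may belong to it. Its near copy Stat5b, which lies 8626 bases away, was at 33.8 ± 6.32 and 29.5 ± 9.74 (SD, n = 4), a log2 fold change of −0.20 with an adjusted p of 0.728.

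Elf5, the Ets factor of alveolar cells (chr2:103411688-103450989, plus strand), was at 35.96, 72.4, 46.9 and 72.8 normalized CPM in E-cadHI cells and at 8.25, 48.7, 31.3 and 19.4 in E-cadLO cells. The groups overlapped, because the E-cadLO library of mouse 58 lay above the E-cadHI libraries of mice 57 and 67. Its log2 fold change of −1.09 (standard error 0.48, 95% interval −2.16 to −0.01, adjusted p = 0.356) was the furthest from 0 among the regulators that were lower. The log2 ratio was −2.06 and −1.88 in mice 57 and 70 and −0.57 and −0.58 in mice 58 and 67.

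Ehf is the neighbour of Elf5 (chr2:103263433-103303278, minus strand), with 108409 bases and 0 protein-coding genes between them. It was at 745, 571, 721 and 445 normalized CPM in E-cadHI cells and at 202, 432, 544 and 395 in E-cadLO cells, so the groups overlapped. Its log2 fold change was −0.66 (standard error 0.30, 95% interval −1.33 to 0.01, adjusted p = 0.363). This value leaned on mouse 57, whose log2 ratio was −1.88 beside −0.40, −0.41 and −0.17 in mice 58, 67 and 70. Without mouse 57 it was −0.36.

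Elf3, the other epithelial Ets factor of the group (chr1:135253575-135258568, minus strand), went the other way. It was at 48.3, 47.5, 48.9 and 38.7 normalized CPM in E-cadHI cells and at 50.7, 63.3, 64.9 and 45.7 in E-cadLO cells. The difference was small, 0.29 as a log2 fold change (standard error 0.17, 95% interval −0.10 to 0.68, adjusted p = 0.449), and the groups overlapped. Within mice the log2 ratio was 0.07, 0.41, 0.40 and 0.24.

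Gata3, the zinc finger factor of the luminal lineage (chr2:9857078-9890034, minus strand), was at 508, 484, 772 and 392 normalized CPM in E-cadHI cells and at 338, 297, 414 and 282 in E-cadLO cells. The E-cadLO library of mouse 67 was above the E-cadHI library of mouse 70, so the groups overlapped. The edgeR estimate was a log2 fold change of −0.70 (standard error 0.23, 95% interval −1.22 to −0.17, adjusted p = 0.298). With TMM scaling, the ratio was the most even of the regulators that were lower in 4 of 4 mice, at −0.59, −0.70, −0.90 and −0.47, with a mean of −0.67 ± 0.18 (SD, n = 4). Relative to epithelial RNA (below) its SD was 0.68, the largest of these regulators.

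**Figure D2:**
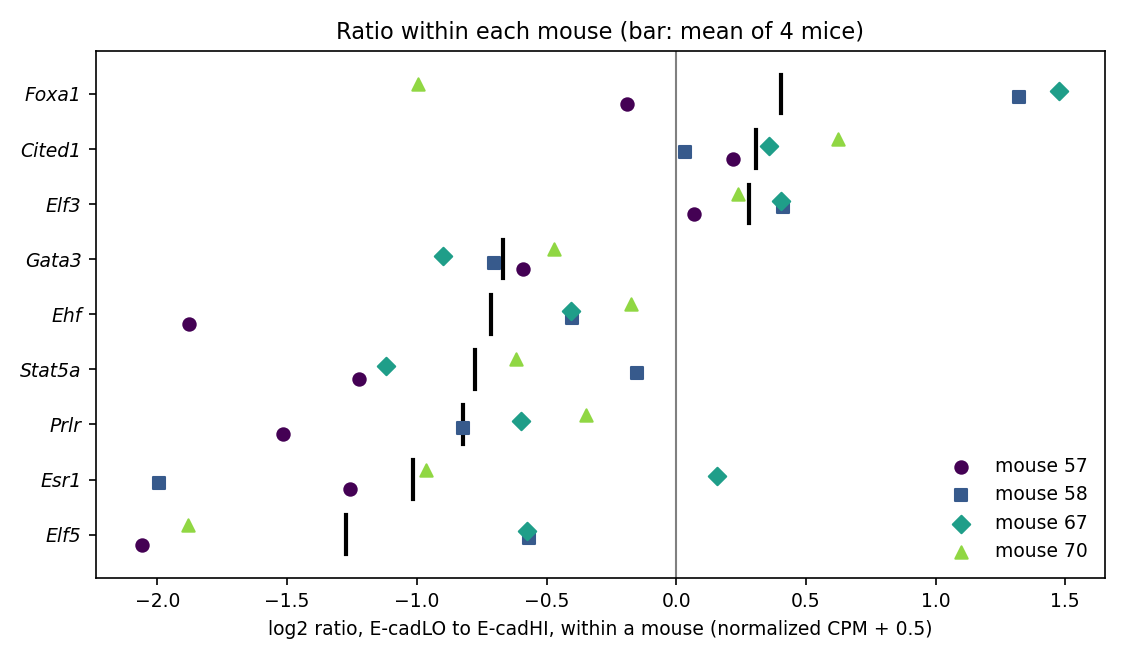
Log2 ratio of E-cadLO to E-cadHI within each mouse (1 point per mouse, normalized CPM plus 0.5) for the regulators, with 0 meaning no difference. Elf5, Ehf, Gata3, Prlr and Stat5a lie below 0 in 4 of 4 mice, and mouse 57 has the lowest ratio for Elf5, Ehf, Prlr and Stat5a.

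Esr1, the estrogen receptor (chr10:4611593-5005614, plus strand), was at 8.50, 10.3, 7.73 and 7.02 normalized CPM in E-cadHI cells and at 3.27, 2.21, 8.68 and 3.35 in E-cadLO cells. The E-cadLO library of mouse 67 was as high as the E-cadHI libraries, and the other E-cadLO libraries were below all of them. Its log2 fold change was −0.93 (standard error 0.47, 95% interval −1.98 to 0.11, adjusted p = 0.390). Without mouse 67 it was −1.53, and without mouse 58 it was −0.59. Foxa1 (chromosome 12, minus strand), which opens chromatin for Esr1, had 1, 7, 11 and 12 counts in the E-cadHI libraries and 0, 18, 47 and 4 in the E-cadLO libraries. Its log2 fold change of 1.15 had a 95% interval from −1.54 to 3.85 (adjusted p = 0.645), which holds differences in both directions.

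Pgr, the progesterone receptor (chr9:8899833-8968611, plus strand), had 1, 8, 0 and 1 counts in E-cadHI libraries and 0, 0, 11 and 8 in E-cadLO libraries. In 5 of the 8 libraries it was at or under the floor of 3 counts, which corresponds to 0.190 to 0.330 CPM, so no fold change is given. Cited1 (chrX:102247381-102252181, minus strand), the coactivator, was low but counted in each library, at 1.46, 1.69, 1.41 and 2.46 normalized CPM in E-cadHI cells and 1.78, 1.74, 1.95 and 4.05 in E-cadLO cells. The log2 fold change was 0.44 (standard error 0.49, 95% interval −0.66 to 1.54, adjusted p = 0.663). It came to 0.08 without the E-cadLO library of mouse 70.

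When edgeR was given the mouse as a block, the log2 fold changes were −1.28 for Elf5, −0.67 for Gata3, −0.82 for Prlr and −0.79 for Stat5a, with adjusted p of 0.123, 0.123, 0.137 and 0.150. DESeq2 with the same block gave −1.27 for Elf5 (adjusted p = 0.00379), −0.64 for Gata3 (0.00272), −0.80 for Prlr (0.0114) and −0.76 for Stat5a (0.0373). Whether these 4 genes passed therefore depended on the tool as well as on the pairing.

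**Figure D3:**
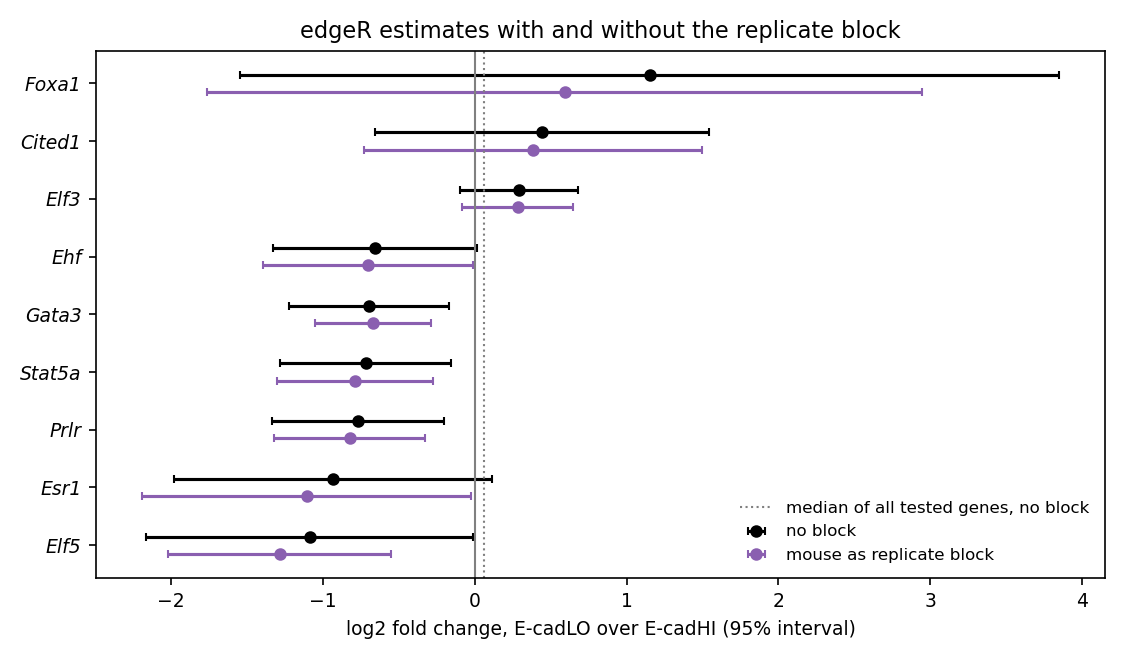
Log2 fold change of E-cadLO against E-cadHI for the 9 tested regulators, from edgeR without the block and with the mouse as a block, each with its 95% interval, and the median of all genes tested as a dotted line. Without the block, the intervals of Elf5, Gata3, Prlr and Stat5a exclude 0 before adjustment, and 0 of the 9 pass after it.

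Genes downstream of the prolactin receptor were measured next to it. On the list of prolactin and Stat5 pathway genes, 14 of 15 were tested, of which 9 were lower and 5 higher in E-cadLO cells and 0 passed in edgeR, with a median log2 fold change of −0.78 beside 0.06 for all genes tested. The milk proteins gave most of the lower values. The casein Csn3, the most abundant of them, was at 9284 to 16458 normalized CPM in E-cadHI cells and 1814 to 8602 in E-cadLO cells, without overlap, a log2 fold change of −1.10 (adjusted p = 0.328). The caseins Csn2 (−1.10) and Csn1s1 (−0.75), the milk sugar enzyme subunit Lalba (−1.48) and the milk fat enzyme Xdh (−0.85) were each lower in 4 of 4 mice with adjusted p from 0.341 to 0.415. DESeq2 with the block called 3 genes of the list lower, Csn3 (adjusted p = 0.0266), Xdh (0.0179) and, named after its values were seen, the whey protein gene Wap (−1.14 in edgeR, adjusted p = 0.00979 in DESeq2 with the block and 0.0106 without). When the list was split after its values were seen, the 8 tested milk genes had a median of −1.09. Of these, 7 were lower in 4 of 4 mice, against 14.2% of all genes tested. Their median within-mouse log2 ratio was −2.73 in mouse 57, whose E-cadLO library also stood apart in fibroblast markers, and −0.23, −0.91 and −0.84 in mice 58, 67 and 70. The 6 signalling genes had a median of 0.43, with 0 lower in 4 of 4. Among these, the kinase Jak2 had a log2 fold change of 0.06, and the feedback inhibitors of cytokine signalling Cish, Socs2 and Socs3 had 0.42, 0.45 and 0.87, with adjusted p of 0.605, 0.521 and 0.451. These signalling genes were likewise named after their values were seen.

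Of the 12 listed targets of estrogen, progesterone and glucocorticoid receptors, 5 had enough counts to be tested. The cell cycle regulator Ccnd1 had a log2 fold change of −0.42 (adjusted p = 0.330) and did not overlap between the groups, with 209 to 308 normalized CPM in E-cadHI cells and 159.6 to 191 in E-cadLO cells. The binding protein Igfbp4 had −0.33 and the steroid receptor cochaperone Fkbp5 −0.39. The secreted Stc2 had 0.35 and the growth factor Areg, a ligand of the EGF receptor and a mediator of estrogen in the gland, 1.72. Areg was at 1.05 to 4.04 normalized CPM in E-cadHI cells and 5.72 to 12.1 in E-cadLO cells, without overlap, with an adjusted p of 0.282 in edgeR, 0.0480 in DESeq2 without the block and 0.0201 with it. The other 7 targets, Greb1, Tff3, Tnfsf11, Pdzk1, Calca, Wnt4 and Agr2, had too few counts.

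Other luminal transcription factors had a median log2 fold change of −0.31. Their median within-mouse log2 ratio was −0.67, 0.02, −0.13 and −0.25 in mice 57, 58, 67 and 70. Of 22 listed, 20 were tested, 13 lower and 7 higher, and 0 called by edgeR. In 4 of 4 mice, 9 were lower and 2 higher, beside 14.2% and 16.8% of all genes tested. The secretory factor Xbp1, the most abundant of them, was at 1675 to 2498 normalized CPM in E-cadHI cells and 666 to 1392 in E-cadLO cells, a log2 fold change of −0.85 (adjusted p = 0.282 in edgeR, 0.0295 in DESeq2 without the block and 0.0244 with it). Id2 (−0.75), Hey1 (−0.82) and Grhl1 (−0.51) were also lower in 4 of 4 mice, and Nfib (−0.31) in 3. DESeq2 with the block called 1 gene of the list lower, Xbp1, and 1 higher, the epithelial repressor Ovol1 (1.18 in edgeR, higher in 4 of 4 mice, adjusted p = 0.00829 in DESeq2 with the block), which was named after its values were seen.

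Among the luminal structural genes, 14 of 14 were tested, with a median of −0.41 and 0 called by edgeR. In 4 of 4 mice, 3 of the 14 were lower and 0 higher, beside 14.2% and 16.8% of all genes tested. Their median within-mouse log2 ratio was −1.79, 0.27, −0.26 and −0.41 in mice 57, 58, 67 and 70. The luminal keratins Krt8 (0.09) and Krt18 (0.28) were each lower in 2 mice and higher in 2, and Krt19 (−0.30) was lower in 3. The adhesion molecule Epcam (−0.75) and the pattern receptor Cd14 (−1.13) were lower in 4 of 4 mice. DESeq2 with the block called 2 of the 14 lower, Cd14 (adjusted p = 0.0160) and, named after its values were seen, the progenitor receptor Kit (0.0437). The regulators had a median of −0.70, with 6 lower and 3 higher. Whether the regulators differ from the other luminal genes was not tested.

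Relatives of the regulators, such as other Ets, Gata, forkhead, nuclear receptor and Stat genes, had a median of −0.11 over the 17 of 24 tested, which was 0.06 when the libraries were scaled to epithelial genes instead, with 0 called by edgeR. Among the most abundant were Stat3 (−0.30), the glucocorticoid receptor Nr3c1 (0.19), Stat6 (0.02) and Elf1 (−0.02). DESeq2 called 1 relative, Foxa3 (2.98 in edgeR, adjusted p = 0.0118 in DESeq2 with the block and 0.0227 without), higher, which was named after its values were seen. Foxa3 was at 0.42 ± 0.05 (SD, n = 4) normalized CPM in E-cadHI cells and 3.39 ± 3.22 in E-cadLO cells. The filter by group may have kept Foxa3 on its E-cadLO counts alone, so no conclusion is drawn from this call. Of the basal list 7 of 13 were tested, with a median of −0.01, or 0.08 under that scaling, and 0 called by edgeR without the block. Krt14 was at 87 to 173 normalized CPM over the 8 libraries, whereas Krt5, its usual partner, named after its values were seen, did not exceed 0.922. Krt17, a keratin of basal and stressed epithelium, had a log2 fold change of 2.94 and was called higher in E-cadLO cells when the mouse was a block (2.74, adjusted p = 0.0427, edgeR), which called 0.728% of all genes higher. DESeq2 called Krt17 higher with and without the block and, with the block, the oxytocin receptor Oxtr lower (−1.19 in edgeR, adjusted p = 0.00946 in DESeq2 with the block), although Oxtr was higher in E-cadLO cells in mouse 58 (19.6 to 33.0 normalized CPM).

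**Figure D4:**
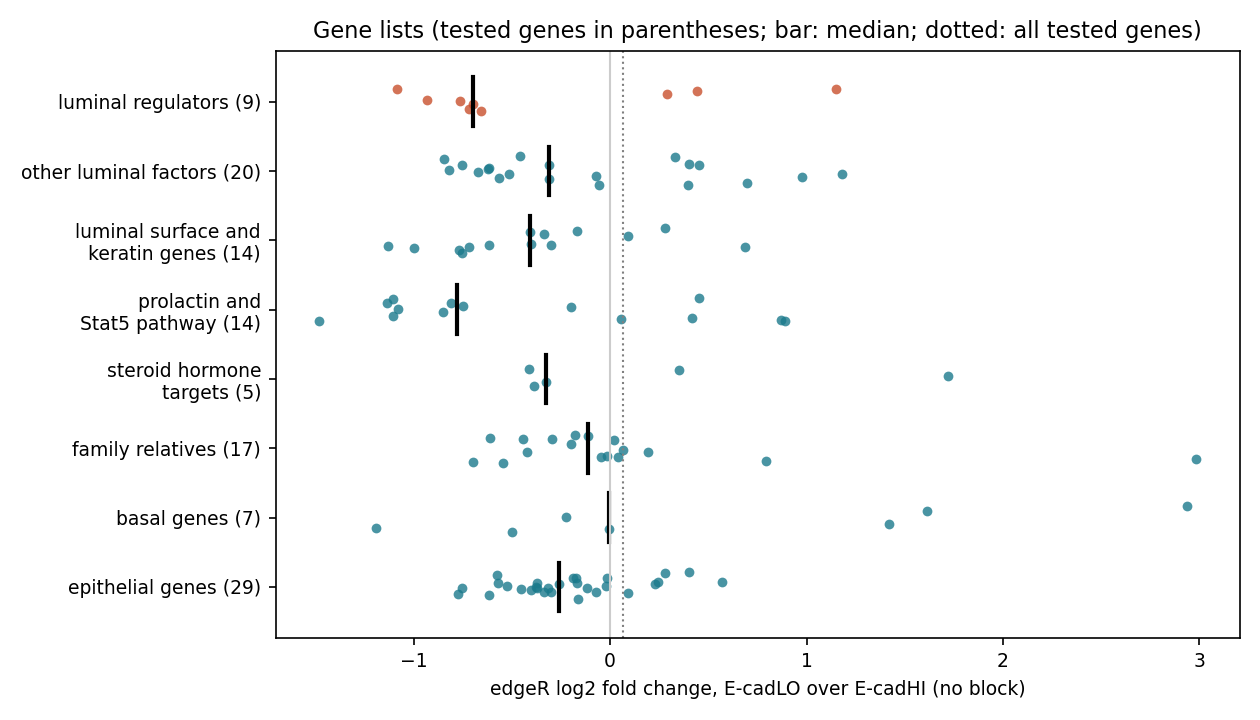
Log2 fold change (E-cadLO against E-cadHI, edgeR without the block) of each tested gene in the lists, 1 point per gene, with the median of each list and that of all genes tested. The medians are −0.70 for the regulators, −0.31 for other luminal factors, −0.41 for luminal structural genes and 0.06 for all genes tested.

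Markers of microglia and macrophages, oligodendrocytes and fibroblasts summed to higher values in E-cadLO than in E-cadHI libraries in 4 of 4 mice, and those of astrocytes in 3. Cdh1 itself, the gene of the protein sorted on, was lower in E-cadLO cells in 3 of 4 mice, with 114, 132, 93.5 and 108 normalized CPM in E-cadHI cells and 71.6, 181, 84.5 and 59.2 in E-cadLO cells. The summed level of 15 microglia and macrophage markers was 45.3, 129, 186 and 449 normalized CPM in E-cadHI cells and 299, 329, 1189 and 1531 in E-cadLO cells, with Ctss the most abundant. Of the 15, 14 were higher in 4 of 4 mice, against 16.8% of all genes tested. The 10 oligodendrocyte markers, led by the myelin gene Mbp, summed to 608, 1702, 1016 and 8670 in E-cadHI cells and to 1351, 3872, 4346 and 34435 in E-cadLO cells. By log2 fold change 8 of them were higher and 2 lower, with 6 higher and 1 lower in 4 of 4 mice. The 10 astrocyte markers, led by Aldoc, summed to 1197, 1221, 1366 and 3715 and to 765, 1602, 2076 and 10536. Aldoc alone made up 1005, 689, 1026 and 2233 of the E-cadHI sums, so these mostly follow that gene. Gfap, Slc1a2 and Slc1a3 were at 2.09, 4.88 and 3.69 in the E-cadHI library of mouse 57. Each of them was higher in E-cadLO cells in 4 of 4 mice. By log2 fold change all 10 markers were higher, with 6 higher and 0 lower in 4 of 4 mice. The lower sum in mouse 57 came from Aldoc, which went from 1005 to 124, while the median log2 ratio of the list in that mouse was 1.59. Fibroblast markers, led by Col1a1, stood at 1176 normalized CPM in the E-cadLO library of mouse 57, where Elf5, Ehf, Prlr and Stat5a were at their lowest, and between 6.02 and 42.2 in the other 7 libraries. The paper describes the gates of its sort as set for tumor cells. It also holds its E-cadLO tumor cells to be mesenchymal. Whether the marker RNA came from other cells or from tumor cells was not tested. Its part in the lower values of the regulators was not tested either. In bulk libraries, fewer cells of a type and less RNA per cell cannot be told apart.

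Prlr is also a gene of the choroid plexus, the tissue that makes cerebrospinal fluid. The defining choroid plexus gene Ttr was at 0.558, 0.692, 2.82 and 259.5 normalized CPM in E-cadHI cells and at 6.32, 6.75, 25.8 and 933 in E-cadLO cells. Ttr was higher in E-cadLO cells in 4 of 4 mice. The folate receptor Folr1, the most abundant gene of that list, was at 218 to 417 in E-cadHI cells and 53.5 to 182 in E-cadLO cells, lower in 4 of 4 mice. The chloride channel gene Clic6 was at 66.8, 20.98, 63.7 and 56.9 in E-cadHI cells and at 11.7, 30.9, 33.6 and 16.8 in E-cadLO cells, lower in 3 of 4. The secreted enzyme gene Enpp2 was at 0.976, 30.8, 8.55 and 234 in E-cadHI cells and at 52.7, 28.5, 80.1 and 1362 in E-cadLO cells, higher in 3 of 4. Of the 5 tested genes of the list, Prlr included, 2 were higher and 3 lower. The sort was gated for tumor cells, and the part of choroid plexus cells in the level of Prlr was not tested.

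To set the regulators against epithelial RNA, the libraries were scaled to the sum of 30 epithelial genes. Of these, 29 were tested and 23 were lower in E-cadLO cells, with a median of −0.26. The keratins Krt18 and Krt8 weighed most on the sum, at 6602 and 4399 of 16436 normalized CPM in the E-cadLO library of mouse 67. In mice 57, 58, 67 and 70 the log2 ratio of the sum was −0.87, 0.26, 0.31 and −0.24. The median ratio of the tested genes on the list was −0.72, 0.23, −0.29 and −0.38. A scale by the median gene was not tested. Scaling to the sum moved the median of all genes tested by 0.18 on the log2 scale, to 0.25. The log2 fold change was then −1.13 for Elf5, −0.58 for Ehf, −0.52 for Gata3, −0.67 for Prlr and −0.58 for Stat5a, and 0.44 for Elf3, and 0 of the 9 passed. Relative to the median of all genes these values were −1.37, −0.83, −0.76, −0.92, −0.83 and 0.19. Within mice the ratio to epithelial RNA stayed below 0 in 4 of 4 mice for Elf5, Prlr and Stat5a and above 0 for Elf3. It turned above 0 for Gata3 in mouse 57 (0.28) and Ehf in mouse 70 (0.06). It turned below 0 for Cited1 in mouse 58 (−0.22) and for Esr1 in mouse 67 (0.16 to −0.15). Foxa1 in mouse 57 went from −0.19 to 0.68, but with 1 count in the E-cadHI and 0 in the E-cadLO library this shows the scaling and not Foxa1.

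**Figure D5:**
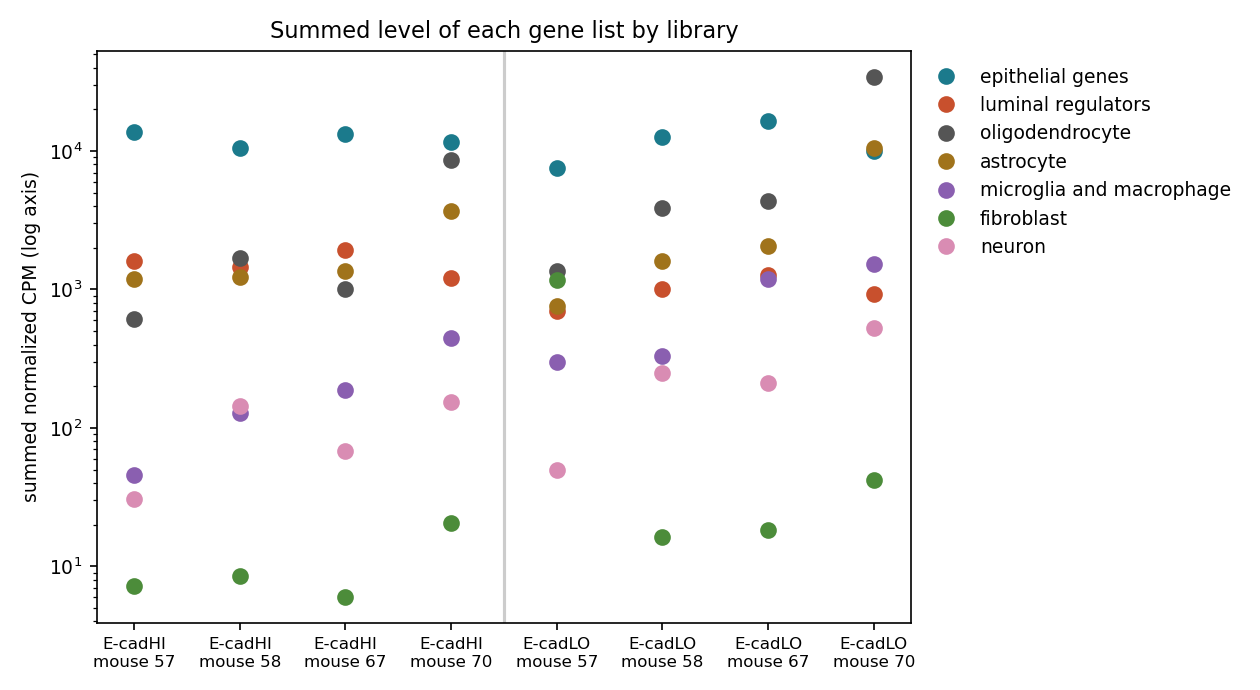
Summed normalized CPM (y axis, log scale) of the luminal regulators, the epithelial genes and the markers of other cell types in each of the 8 libraries. Oligodendrocyte and astrocyte markers are highest in the libraries of mouse 70, and fibroblast markers in the E-cadLO library of mouse 57.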

How the data were processed

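Single reads of 65 bases from mRNA libraries were mapped by the authors with Hisat (2.1.0 in the submitters' notes) to the mouse genome GRCm38, and the whole-number counts per gene were deposited without normalization. The paper names Icount and the submitters' notes HTSeq for the counting, and the strand setting is not given in the sources used here. The table held 32259 entries. The 365 without a gene identifier were left out (at most 0.0954% of the counts of a library), and 31894 genes remained.

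Genes were filtered with filterByExpr by group and compared over all 8 libraries with edgeR 4.0.16 (R 4.3.3), TMM normalization and the quasi-likelihood test, with p-values adjusted over all 13598 tested genes by the Benjamini-Hochberg method and called under 0.05. The design had no block, since the paper names DESeq2 and no block. CPM were computed from the TMM-adjusted library sizes. Ratios within a mouse used normalized CPM plus 0.5 and an exact sign-flip test. Levels per length used exon lengths of the GENCODE M21 annotation. DESeq2 1.42.0, the mouse as a replicate block, other normalizations and filters and left-out libraries were alternatives. The E-cadHI and E-cadLO libraries of a number come from the same mouse, and their deviations from the group means correlated at 0.275 to 0.698 over 4 same-mouse pairs, against −0.516 to 0.153 over the other 12 pairs. No pair of libraries agreed within sampling noise (smallest chi-square per degree of freedom 30.1).

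The regulators and the gene lists were chosen with earlier results of these data known. From each other list at most the 5 genes with the highest mean level were named, with any gene called with or without the block, and for each tested regulator the 3 genes most alike over the libraries. Other genes are said to be named after their values were seen where they appear, and Stat5b and the untested hormone targets are also of this kind. The steps were tested on simulated data. Python 3.11, pandas 2.3, scipy 1.17 and matplotlib 3.10 were used for tables and figures.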

Additional observations from a re-analysis of the deposited data

Results flagged for a closer look

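In groups of 4 libraries or mice, 11 of 63 groups examined held a value far from the others, where about 3.15 would by chance (1 in 20). Among the regulators these were Elf3 in the E-cadHI library of mouse 70 (38.7 normalized CPM, the lowest), Pgr in the E-cadHI library of mouse 58 (0.615 normalized CPM, 8 counts), Cited1 in the E-cadLO library of mouse 70 (4.05 normalized CPM, the highest) and the within-mouse log2 ratio of Ehf in mouse 57 (−1.88). The E-cadHI library of mouse 58 had a count for 25216 genes, more than any other library (17081 to 21179).

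The other 7 were sums of marker genes in normalized CPM. Mouse 70 stood apart in the astrocyte markers (3715 in E-cadHI and 10536 in E-cadLO cells), the oligodendrocyte markers (8670 and 34435), the fibroblast markers of E-cadHI cells (20.5) and the choroid plexus list of E-cadLO cells (2688), which holds Prlr. The E-cadLO library of mouse 57 stood apart in the fibroblast markers (1176). The sort was gated for tumor cells, and whether this marker RNA came from other cells was not tested. Its part in the levels of the regulators was not tested either.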

How the results depend on the processing

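Over 25 alternatives each, the log2 fold changes of Elf5 (−1.53 to −0.80), Ehf (−0.88 to −0.35), Gata3 (−0.83 to −0.47), Esr1 (−1.53 to −0.59), Prlr (−0.97 to −0.60), Stat5a (−0.98 to −0.58), Elf3 (0.21 to 0.44) and Cited1 (0.08 to 0.64) kept their direction. Adjusted p ranged from 0.00379 to 0.680 for Elf5, from 0.00272 to 0.680 for Gata3, from 0.0114 to 0.680 for Prlr and from 0.0373 to 0.681 for Stat5a. Apart from DESeq2 with the replicate block, a regulator passed in 1 setting, Gata3 without mouse 57 in edgeR with the block (−0.72, adjusted p = 0.0446). The block in edgeR changed no other call among the regulators. Foxa1 reversed to −0.13 without mouse 58 with the replicate block, within a range of −0.13 to 1.87 over left-out libraries and mice, and the cause was not tested. It had too few counts for a value with at least 10 counts in every library or without mouse 67.

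The number of genes called higher in E-cadLO cells moved from 0 to 292 in DESeq2, 1029 in DESeq2 with the replicate block, 99 in edgeR with the block, 23 without a filter, 3 with at least 10 counts in every library and 267 in edgeR with the block and scaling to epithelial RNA, a setting chosen after seeing the data. The number called lower moved from 0 to 56 in DESeq2, 222 in DESeq2 with the block and 8 with the block and epithelial scaling. With a mouse left out in edgeR with the replicate block, 0 to 425 genes were called higher (425 without mouse 57, 63 without 58, 0 without 67 and 2 without 70) and 0 to 24 lower (24 without mouse 57 and 3 without 58). Without the block, 13 genes were called higher without the E-cadLO library of mouse 70 and 0 in either direction with any other mouse or library left out. The causes were not tested. Pgr, Foxa1 and Cited1 had at most 58 counts per library, and the parts of depth and of the spread between mice in their intervals were not tested.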

Other observations

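The genes whose levels followed each regulator most closely over the 8 libraries (Pearson r of log2 normalized CPM plus 0.5, given as a description, with the libraries of a mouse sharing their source) differed between regulators. Ehf was most like the mucin Muc15 (0.994), the adhesion molecule Ceacam1 (0.991) and Alg6 (0.991), and 6.57% of all genes tested had an r above 0.8 with it. Prlr was most like Nudt5 (0.986), the DNA polymerase subunit Pole2 (0.986) and Usp14 (0.984). Elf5 was most like Rnpepl1 (0.981), 1700025G04Rik (0.978) and the transcription factor Sox10 (0.9746), and Stat5a most like Fn3krp (0.990), Mlec (0.9746) and the mitochondrial import gene Tomm40 (0.973). Gata3 was most like the mitotic kinase Aurkb (0.951), Pole3 (0.950) and Ehhadh (0.948), but fewer genes were this close, with 0.824% above 0.8. For the genes higher in E-cadLO cells the closest were Camk2d (0.974) for Elf3 and Trak2 (0.987) for Cited1. Foxa1 and Esr1 were closest to Ppp2r5e (0.973) and Pdcd11 (0.952), at levels where single counts weigh on the value.

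Of the remaining marker lists, those of neurons and endothelium summed to higher values in E-cadLO cells in 4 of 4 mice. The 10 neuron markers, led by Map2, summed to 30.9, 144, 67.7 and 154 normalized CPM in the E-cadHI libraries of mice 57, 58, 67 and 70 and to 49.3, 249, 213 and 525 in the E-cadLO libraries. The endothelial markers, led by Flt1, summed to 41.9, 43.0, 78.3 and 74.6 and to 63.2, 77.7, 101 and 112. Flt1 made up most of these sums in mouse 58 (39.0 of 43.0 and 73.7 of 77.7), where the list had a median log2 ratio of 0.09. The lymphocyte markers, led by Ptprc, were at 0.209, 5.84, 4.16 and 16.7 and at 0.149, 8.84, 67.9 and 57.9. Ptprc made up 62.1 and 42.2 of the sums in the E-cadLO libraries of mice 67 and 70. The T cell genes Cd3d and Cd3g did not exceed 1.12 and 1.26 in any library, so the sum follows Ptprc and not these genes. In mouse 57 Ptprc had 2 counts in the E-cadHI and 0 in the E-cadLO library, so no direction is read there. The neutrophil markers, led by S100a8, lay between 9.77 and 27.0 in all 8 libraries. Of these, S100a9 and Cxcr2 did not exceed 1.75 and 2.38, and Mmp9 made up 19.8 of 26.6 in the E-cadLO library of mouse 57. The sum is therefore not read as a level of neutrophils. In the edgeR fit with the replicate block, calls were made for 6 microglia and macrophage markers, the astrocyte genes Gfap, Slc1a3, S100b and Atp1b2, the oligodendrocyte genes Mbp and Mobp, the synaptic gene Snap25 and Ttr, all higher in E-cadLO cells.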
